A study of Mus musculus with 24 samples.

Results

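The miR-99/100 and miR-125 families were followed across mammary tumor development in PyMT mice. The members are 5 miRNAs, listed as mir-99a, mir-99b, mir-100, mir-125a and mir-125b and chosen by name from the 510 miRNAs of the deposited small RNA table, of which 364 had at least 1 count. Small RNA of mammary tissue was sequenced at weeks 6, 8, 10 and 12 of age, with 3 tumors and 3 normal glands at each week and 24 libraries in all. The tumors came from F1 females on the FVB background heterozygous for the MMTV-PyMT transgene, in which the mouse mammary tumor virus promoter drives the polyoma middle T oncoprotein in the mammary epithelium. Their labelled stages were hyperplasia (week 6), adenoma or mammary intraepithelial neoplasia (week 8), early carcinoma (week 10) and late carcinoma (week 12), and all of these are called tumor here. The normal glands came from FVB females of the same ages without the transgene. Only primary tumors were taken, and by the study's pathology the tissues of weeks 6 and 8 still held normal mammary gland cells. The same pathology described the carcinoma samples as mostly tumor cells, with few stromal, muscle or inflammatory cells.

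miRNAs guide Argonaute proteins to messenger RNAs and lower their translation or stability, mainly through base pairing of the seed near their 5′ end. miR-99 and miR-100 are related to miR-10 and are known to repress mTOR, a kinase that promotes growth, while miR-125 is the vertebrate counterpart of lin-4, the founding miRNA of worm development, and has been studied as a repressor of growth factor receptors in breast cancer cells. In mammals, copies of both families lie together with a let-7 member in short genomic clusters, so that a single primary transcript can carry all of them.

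The mature sequences show why the 5 miRNAs form 2 families by their seeds and how little separates the members of a family. They are those of RefSeq on GRCm38.p6, written 5′ to 3′ with the seed, bases 2 to 8, in capitals, and miR-10a and miR-10b are set beside them as the nearest relatives of miR-99 and miR-100.
miR-99a: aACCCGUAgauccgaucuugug
miR-99b: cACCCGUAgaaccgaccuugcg
miR-100: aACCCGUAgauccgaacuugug
miR-125a: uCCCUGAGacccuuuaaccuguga
miR-125b: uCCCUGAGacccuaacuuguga
miR-10a: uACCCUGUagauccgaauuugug
miR-10b: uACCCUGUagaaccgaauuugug
miR-99a, miR-99b and miR-100 share the seed ACCCGUA, and miR-125a and miR-125b share CCCUGAG. Counted from 1 at the 5′ end, miR-99a and miR-100 differ by the single substitution U16A, so that a read with a mismatch at this base could be counted for either. miR-99b differs from miR-99a at 4 positions (A1C, U11A, U16C and U21C). miR-125b, with 22 nucleotides, and miR-125a, with 24, have the same first 13 nucleotides and differ after them.

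The mature sequences were located on mm9, the build named in the labels of the libraries. miR-99a lies at chr16:77599185-77599206 on the plus strand, antisense to an intron of Gm11146, and a copy of miR-125b lies 47.339 kb downstream at chr16:77646524-77646545. miR-100 lies at chr9:41339520-41339541 in an intron of the long non-coding RNA D230004N17Rik, and the other copy of miR-125b lies 50.503 kb away in the same host gene, at chr9:41390023-41390044. miR-99b and miR-125a lie within 623 bases of each other on chromosome 17, at chr17:17967158-17967179 and chr17:17967781-17967804, the latter in an exon of Ncrna00085. A let-7 member lies between the partners of each cluster, let-7c on chromosome 16, let-7a on chromosome 9 and let-7e on chromosome 17. The copies of miR-125b give the same mature miRNA, so the count of miR-125b is a sum over 2 loci that cannot be told apart.

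Values are given as CPM, the count scaled to a common library size after TMM normalization, a scaling that sets aside the most extreme miRNAs. Total counts ran from 1626022 to 3931375 in normal and from 1032241 to 2213972 in tumor libraries, where 3 counts correspond to between 0.712 and 3.53 CPM. All 5 members lay far above this floor, with at least 1264 counts in every library. The miRNAs of skeletal muscle summed to more than 10000 CPM in 4 normal libraries (replicates 1 and 2 of week 6, replicate 3 of week 10 and replicate 1 of week 12) and in 2 tumor libraries (replicate 1 of week 6 and replicate 3 of week 10). Normal replicate 3 of week 12 stood apart for the members, whose CPM summed to 90475 there and to between 43529 and 64499 in the other normal libraries. The 3 samples of a group came from separate mice by the study's methods and were spread over the 2 sequencing lanes given in the labels.

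The families held a median of 5.15% of all counts in normal libraries and 3.55% in tumor libraries. miR-125b was the most counted member in all 12 normal libraries, where it ranked between place 5 and place 9 of all miRNAs, and it ranked between place 9 and place 23 in tumors. miR-100 was the least counted member in every library. These orders are of sequenced reads, since each read covers a mature miRNA of about the same length, and they need not be orders of molecules.

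**Figure D1:**
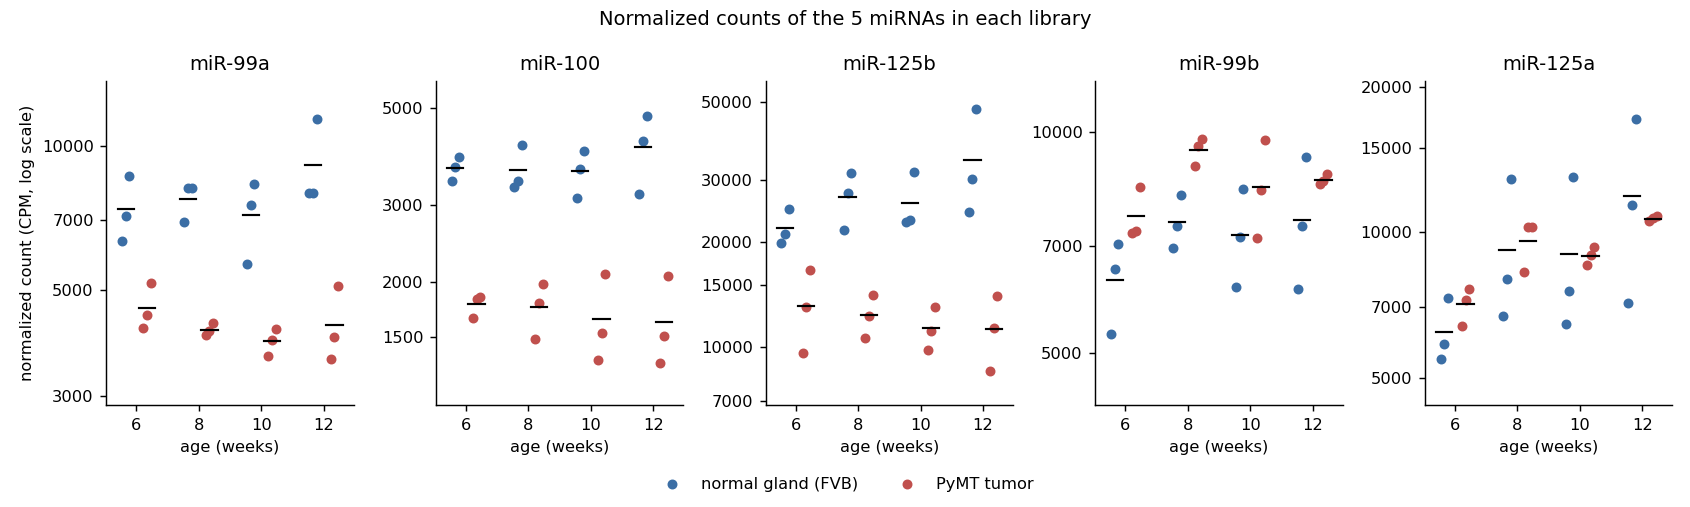
Normalized count of each member (CPM, log axis, with a scale of its own in each panel) in the 12 normal and 12 tumor libraries by age in weeks. Points are libraries and bars are means of 3. For miR-99a, miR-100 and miR-125b all tumor points lie below all normal points, while those of miR-99b and miR-125a lie among each other over the weeks.

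miR-100 was the member with the clearest separation between tissues. The 3 normal glands had 3662, 3397 and 3856 CPM at week 6 and the 3 tumors 1834, 1847 and 1653 CPM. At week 8 they had 4121, 3299 and 3396 CPM against 1974, 1486 and 1792 CPM in tumors, and at week 10 they had 3996, 3114 and 3627 CPM against 2090, 1530 and 1330 CPM. At week 12 the normal glands had 4198, 3185 and 4800 CPM and the tumors 1502, 2060 and 1307 CPM. The highest of the 12 tumor libraries, 2090 CPM, thus lay below the lowest of the 12 normal libraries, 3114 CPM. The log2 fold change of tumor over normal was -1.03 at week 6 (standard error 0.13, adjusted p = 0.00108), -1.08 at week 8 (0.23, 0.0110), -1.12 at week 10 (0.20, 0.00332) and -1.35 at week 12 (0.27, 0.00536), from edgeR's quasi-likelihood test with n = 3 per group and Benjamini-Hochberg adjustment over all 237 tested miRNAs. In each week this difference exceeded the spread between replicates.

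miR-99a, which differs from miR-100 by a single base, was lower in tumors as well. Its CPM was 6335, 7134 and 8643 in normal glands and 4440, 4160 and 5175 in tumors at week 6. Those of week 8 were 6934, 8172 and 8148 in normal glands and 4271, 4100 and 4028 in tumors. The tumors of week 8 lay closest to each other of all groups of this miRNA. At week 10 the normal glands had 7517, 5659 and 8320 CPM and the tumors 4151, 3926 and 3647 CPM. At week 12 the values were 7974, 7978 and 11369 CPM in normal glands and 3994, 5105 and 3592 CPM in tumors. No tumor library reached a normal one at any week, the closest being 5175 CPM in a tumor of week 6 and 5659 CPM in a normal gland of week 10. The log2 fold changes were -0.68, -0.93, -0.88 and -1.13 at weeks 6, 8, 10 and 12, with standard errors from 0.16 to 0.25 and adjusted p from 0.00312 to 0.0142 in edgeR.

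miR-125b, the most abundant member, had the largest difference at week 12. Its CPM at week 6 was 24753, 21009 and 19828 in normal glands and 12970, 9627 and 16568 in tumors. At week 8 the normal glands had 31295, 27425 and 21583 CPM and the tumors 12222, 10613 and 14100 CPM. At week 10 they had 31574, 22717 and 22981 CPM against 13024, 11091 and 9790 CPM in tumors. The 2 tissues were again apart at every week, and the tumors of week 6 were the most scattered of the tumor groups. At week 12 the normal glands had 30240, 24205 and 47879 CPM and the tumors 11338, 14011 and 8510 CPM. The log2 fold changes were -0.74, -1.16, -1.20 and -1.63 at weeks 6, 8, 10 and 12, with standard errors of 0.22, 0.24, 0.19 and 0.34 and adjusted p of 0.0233, 0.0110, 0.00178 and 0.00724 in edgeR. Without normal replicate 3 the week 12 values were -1.29 for miR-125b, -0.93 for miR-99a and -1.21 for miR-100, with adjusted p of 0.0100, 0.0146 and 0.0112 in edgeR.

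The 2 members of the chromosome 17 cluster did not pass the test at any week. miR-99b had 5298, 6515 and 7046 CPM in normal glands and 8436, 7283 and 7342 CPM in tumors at week 6. At week 8 it had 8216, 6962 and 7445 CPM in normal glands and 9794, 9592 and 9002 CPM in tumors. At these weeks every tumor lay above every normal gland, as it did for 34.2% and 32.1% of all tested miRNAs. At week 10 the normal glands had 8369, 7205 and 6153 CPM and the tumors 9760, 8336 and 7177 CPM, and at week 12 they had 7455, 6108 and 9248 CPM against 8783, 8507 and 8576 CPM in tumors, so that the tissues overlapped. The log2 fold changes of miR-99b were 0.29, 0.29, 0.21 and 0.16, with standard errors from 0.15 to 0.23 and adjusted p from 0.142 to 0.590 in edgeR. Taken as a share of all counts with no TMM scaling, miR-99b overlapped between tissues at weeks 6, 8 and 10 and was apart at week 12. How many of all tested miRNAs were apart on this measure was not computed.

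miR-125a, which lies 623 bases from miR-99b and has the seed of miR-125b, gave overlapping tissues at all 4 weeks. Its CPM was 7305, 5474 and 5873 in normal glands and 7643, 6402 and 7238 in tumors at week 6. At week 8 it was 12918, 8017 and 6695 in normal glands and 10280, 10288 and 8300 in tumors. The normal glands were the more variable tissue here, since normal replicate 1 had the highest value of both tissues at weeks 8 and 10. At week 10 the values were 13043, 7557 and 6469 CPM in normal glands and 9348, 8554 and 8965 CPM in tumors, and at week 12 they were 11393, 7146 and 17179 CPM in normal glands and 10708, 10546 and 10802 CPM in tumors. The log2 fold changes were 0.19, 0.01, -0.02 and -0.19, with standard errors from 0.16 to 0.34 and adjusted p from 0.309 to 0.981 in edgeR. With 3 libraries per group, a difference of the size of these standard errors was not detectable.

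At each week 3 of the 5 members, miR-99a, miR-100 and miR-125b, passed the threshold of 0.05 on edgeR's adjusted p as lower in tumor, and 0 passed as higher. The same 3 were the only members with an unadjusted p under 0.05 in edgeR at each week. Such a p was found for 153, 115, 152 and 135 of all 237 tested miRNAs, from the first week to the last. The Wald test of DESeq2 also gave 3 members lower and 0 higher, with 138, 101, 140 and 115 of all 237 passing in either direction. By edgeR's adjusted p, the share of all 237 tested miRNAs that passed as lower was 29.5%, 13.5%, 27.4% and 21.5%, from the first week to the last. The share that passed as higher was 29.1%, 21.9%, 32.9% and 29.1%. Tumor libraries that all lay below the normal ones of their week, as for these 3 members, were found for 34.6%, 19.8%, 31.6% and 28.7% of all tested miRNAs. Those that all lay above, as for miR-99b at the first 2 weeks, were found for 34.2%, 32.1%, 36.3% and 33.3%. A single lower miRNA was therefore common in this table. Passing as lower at all 4 weeks was less so, with 7.59% of all tested miRNAs and 3 of the 5 members, and libraries apart with tumor lower at all 4 weeks held for 10.5% and the same 3. All 12 tumor libraries lay below all 12 normal libraries for 9.7% of all tested miRNAs and for the same 3 members. The median log2 fold change of the members was -0.68, -0.93, -0.88 and -1.13 at weeks 6, 8, 10 and 12, and that of all tested miRNAs -0.12, -0.09, -0.15 and -0.19. At each week the median of the 5 was the value of miR-99a, while miR-99b and miR-125a lay between -0.19 and 0.29. With library sizes in place of TMM, the median of all tested miRNAs was -0.26, -0.22, -0.17 and -0.01, and the same 3 members were lower at every week. The calls of week 6 depended on the libraries used, since without tumor replicate 1 or without tumor replicate 2 only miR-100 passed the threshold. Calls over all 237 tested miRNAs also fell, from 139 to 89 and to 78. With any replicate left out, the week 6 log2 fold change ranged from -0.78 to -0.55 for miR-99a and from -0.86 to -0.49 for miR-125b. Without normal replicate 1, miR-125b was lost at week 6 (adjusted p = 0.0538 in edgeR).

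**Figure D2:**
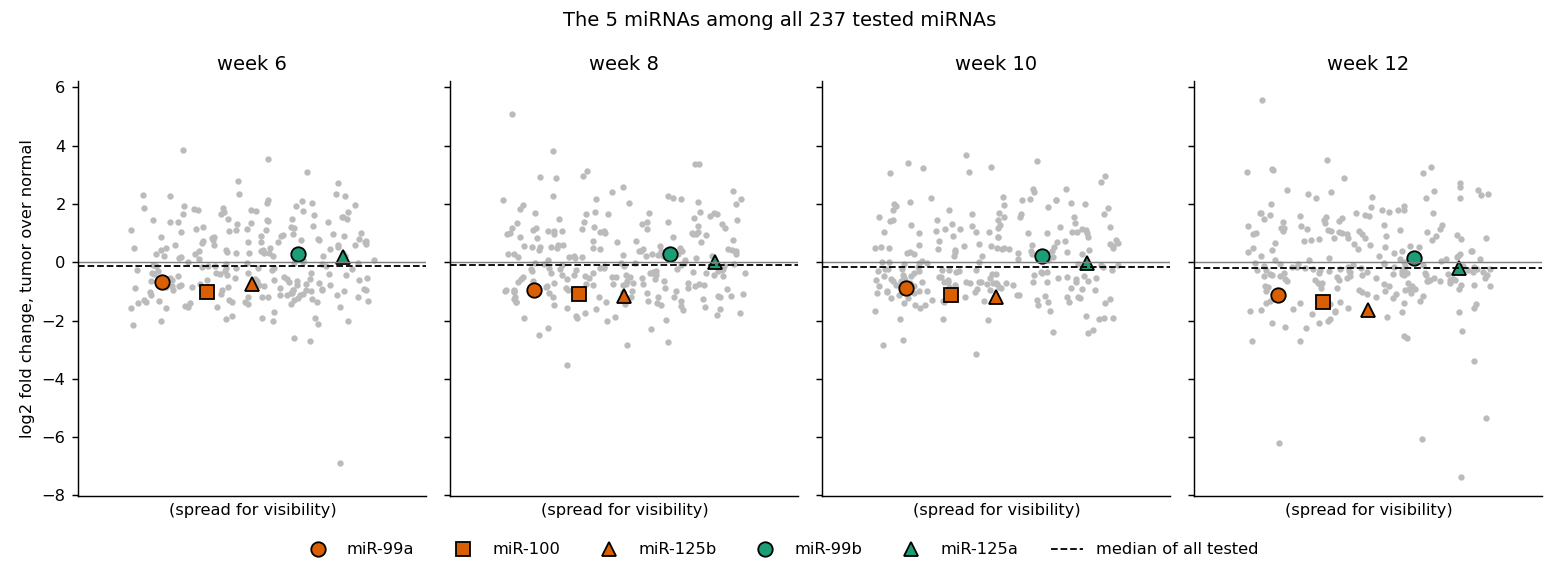
Log2 fold change of tumor over normal for all 237 tested miRNAs (grey points, spread sideways for visibility) at each week, with the 5 members as coloured symbols and the median of all tested miRNAs as a dashed line. miR-99a, miR-100 and miR-125b sit below the median line at every week, within the range of the other miRNAs, and miR-99b and miR-125a sit near it.

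By position, miR-99a of chromosome 16 and miR-100 of chromosome 9 were lower in tumor, and the members of chromosome 17 did not pass the test. miR-125b was lower too, but its count sums over both of the first clusters and cannot be assigned to either. By these calls, the let-7 members of the clusters on chromosomes 9 and 16 did not follow their partners throughout. let-7a, of the chromosome 9 cluster and with a further copy on chromosome 13, had log2 fold changes of -0.63, -0.71, -0.76 and -0.51 and was lower at weeks 6, 8 and 10 (adjusted p of 0.00875, 0.0362 and 0.00220 in edgeR) but not past the threshold at week 12 (0.0786). let-7c, of the chromosome 16 cluster and with a further copy on chromosome 15, had values between -0.11 and 0.43 and did not pass at any week. let-7e, of the chromosome 17 cluster and known from a single locus, had values between -0.39 and -0.02 and did not pass either (lowest adjusted p = 0.0666 in edgeR). In tumors let-7c had between 11761 and 18322 CPM and in normal glands between 9466 and 17212 CPM, and its neighbour miR-99a, which was lower in tumors, lies 732 bases away. Of the 8 tested let-7 members, the number lower in tumor was 1, 1, 3 and 0 from the first week to the last, with 2 at an unadjusted p under 0.05 in edgeR at the last, and 0 were higher at any week. The other entries called at week 10 were let-7d (-0.48) and let-7i (-0.69). miR-98, the ninth listed let-7 member, was at 0 in all 24 libraries.

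**Figure D3:**
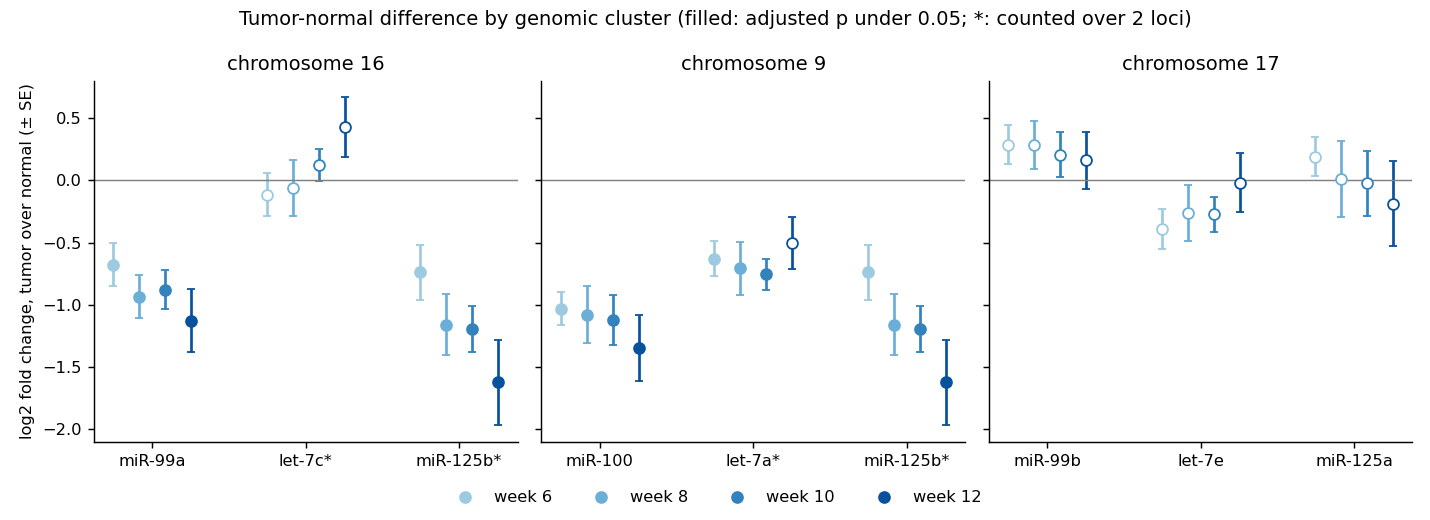
Log2 fold change of tumor over normal (± standard error, n = 3 per group) at weeks 6, 8, 10 and 12 for the members and the let-7 miRNA of each genomic cluster, filled where the adjusted p was under 0.05. miR-125b is drawn in both clusters that encode it, and asterisks mark miRNAs counted over 2 loci. The points of miR-99a, miR-100 and miR-125b lie between -0.68 and -1.63, those of miR-99b and miR-125a between -0.19 and 0.29.

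Ratios between members within a library do not depend on the scaling of the libraries, and 6 of them, between cluster partners or related members, were compared. Among these 6, the largest shifts were miR-125a against miR-125b and miR-99b against miR-99a. Each sets a member that passed at no week against a member that was lower in tumors. The seed is shared in both, but also by miR-99a and miR-100, whose ratio shifted by 0.25 log2 units. Ratios of miR-99b to miR-125b or miR-100, and of miR-125a to miR-99a or miR-100, were not among the 6. Nor were ratios between other miRNAs of the table. How often a pair of an uncalled and a lower miRNA separates the tissues as fully was therefore not computed. The ratio of miR-125a to miR-125b ran from 0.261 to 0.413 over the normal libraries, with a median of 0.303. In tumors it ran from 0.437 to 1.27, with a median of 0.762. Every tumor was therefore above every normal gland, and in tumor replicate 3 of week 12 miR-125a was counted more often than miR-125b. The mean difference over weeks was 1.23 log2 units (standard error 0.11), between 0.97 at week 6 and 1.50 at week 12 (p = 1.25e-05, the smallest that the 160000 permutations within weeks can give, exact two-sided permutation test, Benjamini-Hochberg adjusted p = 3.75e-05 over 6 ratios).

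The same held for miR-99b and miR-99a of the miR-99/100 family. The ratio of miR-99b to miR-99a ran from 0.740 to 1.27 in normal libraries (median 0.882) and from 1.42 to 2.39 in tumors (median 2.16), again without overlap among the 24 libraries. Its mean difference was 1.15 log2 units (standard error 0.09), between 0.97 at week 6 and 1.30 at week 12, with the same smallest p of 1.25e-05 in the exact two-sided permutation test (adjusted p = 3.75e-05).

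The remaining ratios, between partners in a cluster and between the paralogs miR-99a and miR-100, differed less, with miR-125b summed over both of its loci. That of miR-100 to miR-125b had a median of 0.138 in normal glands and 0.141 in tumors, a mean difference of 0.02 log2 units (standard error 0.10, p = 0.826, exact two-sided permutation test), but the weeks went opposite ways, from -0.26 at week 6 to 0.24 at week 12. That of miR-99b to miR-125a had medians of 0.862 and 0.963, a difference of 0.19 (standard error 0.11, exact permutation p = 0.0924, adjusted p = 0.111). It passed 0.05 unadjusted without normal replicate 2 (0.29, exact permutation p = 0.0241) and without normal replicate 3 (0.25, exact permutation p = 0.0276). The ratio of miR-99a to miR-125b was 0.27 log2 units higher in tumors (standard error 0.11, exact permutation p = 0.0223, adjusted p = 0.0335), with overlapping tissues at 3 of 4 weeks. The ratio of miR-99a to miR-100, the near-identical paralogs, was 0.25 log2 units higher (standard error 0.09, exact permutation p = 0.00695, adjusted p = 0.0139), with medians of 2.17 and 2.52. Both of these smaller shifts depended on the libraries used. Without normal replicate 1 they were 0.14 (exact permutation p = 0.222) and 0.14 (exact permutation p = 0.102), and without the 6 libraries rich in skeletal muscle miRNAs they were 0.22 (exact permutation p = 0.134) and 0.20 (exact permutation p = 0.0875). Without tumor replicate 2 the ratio of miR-99a to miR-125b differed by 0.22 (exact permutation p = 0.116).

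**Figure D4:**
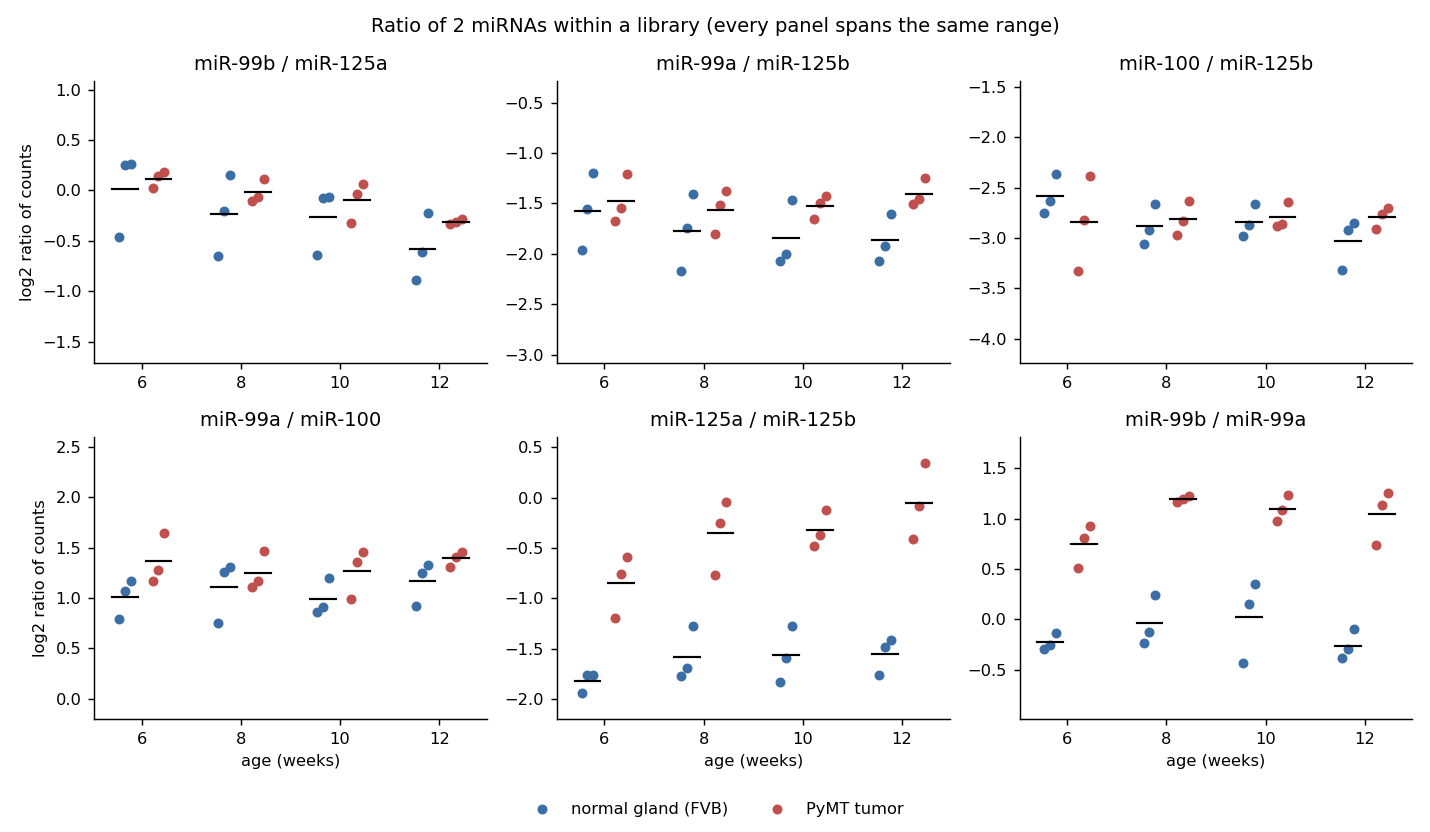
Log2 ratio of the counts of 2 members within each library, by age in weeks, for normal glands and tumors, with points as libraries and bars as means of 3, and axes that all span the same range. The ratios of miR-125a to miR-125b and of miR-99b to miR-99a are higher in every tumor than in every normal library, and the other ratios overlap over the 24 libraries.

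With age, the order of the group means left most neighbours within their spread. For miR-100 the normal means lay between 3579 ± 443 CPM at week 10 and 4061 ± 816 CPM at week 12, and the tumor means between 1623 ± 391 CPM at week 12 and 1778 ± 109 CPM at week 6 (SD, n = 3). Among the 8 groups of miR-99a, of miR-100 and of miR-125b, ordered by their means, the lowest normal group and the highest tumor group were the only neighbours in the order that did not overlap. For miR-125b these were the normal glands of week 6, 21864 ± 2571 CPM, and the tumors of week 6, 13055 ± 3471 CPM (SD, n = 3). The highest normal mean of all 3 was at week 12. The groups of miR-99b ran into each other below the highest, the tumors of week 8 with 9463 ± 412 CPM (SD, n = 3). For miR-125a the tumors of week 12, with 10685 ± 129 CPM, lay above those of week 8, and the tumors of week 6, with 7094 ± 633 CPM, lay below those of week 10 (SD, n = 3), while the normal groups spread across them.

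The log2 fold changes of miR-99a, miR-100 and miR-125b were lowest at week 12, but their variation between weeks did not pass the test. The genotype by week interaction passed for 0 of 5 members in edgeR over all 24 libraries, with unadjusted p from 0.156 for miR-125b to 0.912 for miR-99b, and the likelihood ratio test of DESeq2 gave 0 as well. This interaction was passed by 0% of all tested miRNAs. From week 6 to week 12 the tumor-normal difference of miR-125b changed by -0.85 log2 units (standard error 0.35, unadjusted p = 0.0262, adjusted p = 0.321 in edgeR). The changes of the other 4 members lay between -0.42 and -0.11, and 0 of 5 passed, against 0.422% of all tested miRNAs.

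Within normal glands, miR-125a rose from 6218 ± 963 CPM at week 6 to 11906 ± 5036 CPM at week 12 (SD, n = 3), a log2 change of 0.94 (standard error 0.28, adjusted p = 0.0225 in edgeR). It was the single member of the 5 past the threshold, which 21.1% of all tested miRNAs passed in either direction. Normal replicates 3 and 1 of week 12, with 17179 and 11393 CPM, were above all 3 glands of week 6, while replicate 2, with 7146 CPM, lay below the highest of them. The rise did not pass without normal replicate 3 (0.56, adjusted p = 0.303), with library sizes in place of TMM (0.59, adjusted p = 0.0909) or without the libraries rich in skeletal muscle miRNAs, which leaves 1 normal gland at week 6 (1.05, adjusted p = 0.162), all in edgeR. It did not pass either when any of the tumor replicates was left out. In the same contrast miR-125b had a value of 0.64 (adjusted p = 0.0725 in edgeR), and the others between 0.16 and 0.31. Within tumors 0 of 5 members passed, with 1 at an unadjusted p under 0.05 in edgeR, miR-125a (0.59, adjusted p = 0.189), and 0 by DESeq2, against 7.59% of all tested miRNAs.

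miR-10a and miR-10b, the relatives of miR-99 and miR-100 with another seed, were also lower in tumors. The log2 fold changes of miR-10b were -0.91, -1.99, -1.95 and -2.51 at weeks 6, 8, 10 and 12, each past the threshold in edgeR (highest adjusted p = 0.00851). Those of miR-10a were -0.57, -1.21, -1.15 and -1.33, past the threshold at weeks 6, 10 and 12 and with an adjusted p of 0.0545 at week 8. All 12 tumor libraries lay below all 12 normal libraries for both, with at most 78026 CPM of miR-10b in tumors and at least 117079 CPM in normal glands. In the normal library that stood apart for the members, miR-10b was at its highest of all libraries, 206797 CPM.

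The miRNAs most alike in pattern to each member were named by the Pearson correlation of log2 CPM over the 24 libraries, a description that holds the shared tissue difference. For miR-100 they were miR-199a (r = 0.97), miR-199b (0.96) and miR-125b (0.94), and for miR-125b they were miR-199a (0.95), miR-100 (0.94) and miR-199b (0.94). miR-99a was most like miR-100 (0.94), miR-199b (0.93) and miR-199a (0.93). miR-99b was instead most like miR-191 (0.78), miR-186 (0.75) and miR-423 (0.73), and miR-125a most like miR-30d (0.78), miR-339 (0.64) and its neighbour miR-99b (0.64). Between seed-sharing members, r was 0.20 for miR-125a with miR-125b, -0.43 for miR-99a with miR-99b and -0.42 for miR-100 with miR-99b. It was 0.94 for miR-99a with miR-100, which also share a seed, and 0.92 for miR-99a with miR-125b, which do not. After the group means were taken out, r over the same 24 libraries was 0.67 for miR-125a with miR-125b and 0.35 for miR-99a with miR-99b. It was then 0.59 for miR-100 with miR-99b, 0.52 for miR-99a with miR-100 and 0.51 for miR-99a with miR-125b. miR-100 remained most like miR-199a (0.73) and miR-199b (0.69). All values come from the same 24 libraries, scaled together.

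Several lists of miRNAs that mark other cells of the gland also differed between tumors and normal glands, and others did so only in part. All 3 listed fibroblast miRNAs (miR-199a, miR-199b and miR-214) were lower in tumor at every week, and their sum ran from 12657 to 19881 CPM in normal glands and from 4179 to 8039 CPM in tumors. The log2 fold change of miR-199b went from -1.08 at week 6 to -1.62 at week 12. Both smooth muscle and myoepithelial miRNAs (miR-143 and miR-145) were lower at every week, with sums from 144014 to 256173 CPM against 64709 to 129091 CPM in tumors, and so was the endothelial miR-126, with 20497 to 37462 CPM against 6568 to 18252 CPM. Of the 10 epithelial miRNAs, 8 were higher in tumor at every week, with sums of the list from 15326 to 30649 CPM in normal glands and from 57009 to 98236 CPM in tumors. miR-205 did not pass at any week and miR-203 passed as lower at week 12. Red blood cell miRNAs summed to between 7797 and 34554 CPM in normal glands and between 2060 and 13679 CPM in tumors. Of these 3 miRNAs, the number lower in tumor was 1, 0, 1 and 3 from the first week to the last. Leukocyte miRNAs summed to between 1681 and 3241 CPM and between 1198 and 1868 CPM, with miR-223 of this list at 0 in every library. Of the 3 tested leukocyte miRNAs, miR-150 was lower at every week, and miR-142 and miR-155 did not pass at any week. Skeletal muscle miRNAs summed to between 89.0 and 89335 CPM in normal glands and between 39.9 and 18078 CPM in tumors. Of the 3 tested skeletal muscle miRNAs, 0, 1, 0 and 3 were lower in tumor from the first week to the last. In these bulk tissues fewer cells of a type and less RNA per cell cannot be told apart, and the part of the cell makeup in the difference of miR-99a, miR-100 and miR-125b was not tested. Without the 6 libraries rich in skeletal muscle miRNAs, 3 of 5 members were lower at weeks 10 and 12 in edgeR. Of all 237 tested miRNAs, 148 passed in either direction at week 10 and 93 at week 12 in this setting. No library of week 8 was left out. At week 6 this left 2 tumors and 1 normal gland, and the calls of the 3 members there assume that the lone gland varies like the other libraries.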

How the data were processed

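Small RNA libraries of 12 tumors and 12 normal glands were used. The authors trimmed barcode and adaptor, aligned reads of mature miRNA length with Bowtie (version not given), counted those overlapping a miRBase miRNA and deposited these counts as whole numbers, not normalized. The assembly is mm10 in the paper and mm9 in the labels. How reads of multi-copy miRNAs were assigned is not given in the sources used here. Groups, weeks, replicate numbers and lanes came from the labels, and each group was sequenced on both lanes.

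Tumors and normal glands of a week were compared in edgeR 4.0.16 (R 4.3.3) by TMM and the quasi-likelihood test, on the 237 miRNAs kept by filterByExpr, at a Benjamini-Hochberg adjusted p under 0.05. The standard error is the log2 fold change divided by the square root of F. Changes between weeks used 1 fit of 24 libraries. Count ratios (pseudocount 0.5) were compared by exact permutation within weeks. CPM came from TMM over 24 libraries, and correlations used a prior count of 2. Detection floors of 3 counts cover counting error only, and 3 replicates limit the precision further. DESeq2 1.42.0 and limma 3.58.1, Python 3.11.15, numpy 2.4.6, scipy 1.17.1, pandas 2.3.3 and matplotlib 3.10.9 were used besides. The scripts were tested on simulated data.

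Named miRNAs are the members, let-7, miR-10, the marker lists and the 3 miRNAs most alike to each member. Members and lists were chosen with earlier results of these data known. Same-numbered tumor and normal libraries deviated together from their group means at weeks 6, 8 and 10 (correlations over 237 miRNAs from 0.20 to 0.82 in the 9 pairs). The labels state no pairing and the main tests used none, while the replicate number was used as a block as an alternative. Same-numbered libraries of a week also shared a lane. Replicate 1 of week 6 and replicate 3 of week 10 were rich in skeletal muscle miRNAs in both tissues. The source of the shared deviations was not tested. At week 12 the correlations were 0.03, 0.42 and 0.07. Further alternatives were DESeq2 size factors and tests, library sizes only, scaling without the 5 most counted miRNAs, a single fit of all libraries, no count filter, a minimum of 10 counts per library, the lane as covariate, a minimum log2 change of 1 in either direction, other pseudocounts, and each replicate left out. Leaving out the libraries over 10000 CPM of skeletal muscle miRNAs was chosen after seeing the data. mRNA sequencing was not analysed here.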

Additional observations from a re-analysis of the deposited data

How the results depend on the processing

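In the 9 alternatives that kept all libraries and the threshold, miR-99a, miR-100 and miR-125b were past 0.05 as lower in tumor in 36 of 36 tests each, over 4 weeks, and miR-99b and miR-125a in 0 of 36. Calls over all tested miRNAs, in either direction, ran from 58 of 237 (library sizes only, week 8) to 158 of 237 (replicate block, week 10). Requiring a log2 change of 1 or more in size left 1 member at week 6, 2 at weeks 8 and 10 and 3 at week 12. The share of all tested miRNAs past this cut was not computed. With 1 replicate left out, between 1 and 3 members passed at week 6 and 3 at every other week. Calls over all 237 tested miRNAs, in either direction, then ran from 78 to 150 at week 6 and from 50 to 144 at the other weeks. The replicate block changed no call of a member. Its log2 fold changes were -0.77 for miR-125b, -0.68 for miR-99a and -1.03 for miR-100 at week 6. They were -1.57, -1.11 and -1.34 at week 12, where same-numbered libraries had correlations of 0.03, 0.42 and 0.07.

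For miR-125a, which passed nowhere between tissues, the sign turned at week 8 with DESeq2 size factors or test (-0.065), library sizes only (-0.078), scaling without the most counted miRNAs (-0.053) and at least 10 counts in every library (-0.0098). It turned at week 10 with that filter (0.0024), the replicate block (0.046) and lane (0.041), and at week 12 with library sizes only (0.045). With a replicate left out miR-125a ranged from -0.12 to 0.41 at week 8, from -0.31 to 0.34 at week 10 and from -0.48 to 0.18 at week 12, and miR-99b from -0.0068 to 0.33 at week 12.

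The rise of miR-125a in normal glands gave 0 members past the threshold with library sizes only and without the libraries rich in skeletal muscle miRNAs, and 0 to 1 with a replicate left out. Uncalled changes from week 6 to week 12 that turned sign were, with library sizes only, the tumor-normal difference of miR-99b (0.21) and miR-100 (0.016) and the normal values of miR-99a (-0.0049), miR-99b (-0.044) and miR-100 (-0.16). Without the muscle-rich libraries the difference of miR-99b was 0.11. In tumors, DESeq2 size factors or test gave 0.014 for miR-99a, and for miR-100 0.00077 with the size factors and 0.00088 with the test. With a replicate left out, the difference of miR-99b ranged from -0.27 to 0.038 and that of miR-125a from -0.52 to 0.052, and the tumor values of miR-99a from -0.25 to 0.14, of miR-100 from -0.23 to 0.042 and of miR-125b from -0.48 to 0.23.

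With a replicate left out, the log2 ratio difference of miR-99b to miR-125a ranged from 0.022 to 0.29, of miR-99a to miR-125b from 0.14 to 0.39, of miR-100 to miR-125b from -0.028 to 0.10 and of miR-99a to miR-100 from 0.14 to 0.33. Without the muscle-rich libraries the second was 0.22 and the last 0.20. The ratios of miR-125a to miR-125b and of miR-99b to miR-99a kept their direction and side of the threshold in all 12 alternatives, between 1.16 and 1.33 and between 1.06 and 1.22. The causes were not tested. Each member had at least 1264 counts per library, so no value lay near the floor of 3 counts. Each replicate number of a week holds 1 tumor and 1 normal library, so the block left the ratio differences unchanged, with exact permutation p of 0.0386 for miR-99a to miR-125b and 0.00342 for miR-99a to miR-100.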

Other observations

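After the 8 group means were taken out, the miRNAs most alike to the members over the 24 libraries were partly different from those named by tissue pattern. miR-99a was then most like miR-214 (r = 0.61), miR-497 (0.61) and miR-21 (0.60), and miR-125b most like miR-199a (0.76), miR-199b (0.70) and miR-125a (0.67). miR-100 had miR-125b (0.66) in the third place. miR-125a was most like miR-423 (0.83), miR-23a (0.81) and let-7d (0.80), and miR-99b most like miR-1981 (0.73), miR-215 (0.72) and miR-186 (0.70). These values describe 24 libraries that were scaled together, and no test was made of them.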
